A study of Mus musculus with 10 samples.

Results

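Small leucine-rich proteoglycans are secreted matrix proteins built from leucine-rich repeats, and the members examined here were decorin (Dcn), lumican (Lum), biglycan (Bgn), fibromodulin (Fmod), osteoglycin (Ogn), PRELP (Prelp), asporin (Aspn) and podocan (Podn). The members were matched to the count table by gene symbol, and all 8 had a row in it, 8 of 14623 genes. They held 14024 of the 3860184 UMIs (unique molecular identifiers, each a tagged mRNA molecule) in the table. Single cells of the stromal vascular fraction, the non-adipocyte cells of fat, were profiled with Seq-Well S3, a nanowell method that counts polyadenylated RNA from its 3′ end. The tissue was inguinal white adipose tissue (iWAT) of a Bbs8-/- mouse (Bbs8 KO), which lacks the BBSome subunit BBS8 constitutively, and of a Bbs8+/+ mouse (Bbs8 WT), both lean and 7 weeks old; the study's methods give such animals as age-matched littermates. The comparison addressed how loss of this ciliary protein bears on the cells of the fat depot.

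Proteoglycans of this family bind fibrillar collagens and set the diameter and spacing of the fibrils, and some also bind growth factors such as TGF-β. Decorin and biglycan carry chondroitin or dermatan sulfate chains, lumican, fibromodulin and osteoglycin can carry keratan sulfate, and asporin carries no such chain. In adipose tissue the family is produced mainly by fibroblast-like stromal cells, which include the adipocyte precursors. Those precursors are usually divided into P1 (Dpp4-positive, stem cell-like), P2 (Icam1-positive, committed to the adipocyte fate) and P3 (F3-positive, regulatory).

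Several members are neighbours in the mouse genome (mm10, GENCODE M21 gene models). Dcn (chromosome 10, 97479609 to 97518143, plus strand) and Lum (chromosome 10, 97565128 to 97572703, plus strand) lie 47.0 kb apart. Aspn (chromosome 13, 49544443 to 49567565, plus strand) and Ogn (chromosome 13, 49608046 to 49624501, plus strand) lie 40.5 kb apart. Prelp (chromosome 1, 133910304 to 133921414, minus strand) and Fmod (chromosome 1, 134037254 to 134048277, plus strand) lie 116 kb apart and point in opposite directions. Bgn stands alone on the X chromosome (73483602 to 73495933, plus strand), and Podn on chromosome 4 (108014791 to 108096445, minus strand). Whether the counting used strand is not given in the sources used here. Cenpp runs on the opposite strand through the Ogn introns and overlaps Aspn exons, but it had 5 UMIs in all cells. Podn overlaps Scp2 on the same strand, which had 226 UMIs, so the few Podn UMIs are uncertain.

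Upstream windows of 250 bases are shown for the members with the clearest subtype patterns below, Ogn and its neighbour Aspn, which were higher in P1-like than in P2-like cells, and Bgn, which was higher in P3-like cells. The sequences are RefSeq's (GRCm38.p6, plus strand), each ends at the base before RefSeq's start, and capitals mark matches to a motif searched for.
Bgn, chrX:73483351-73483600: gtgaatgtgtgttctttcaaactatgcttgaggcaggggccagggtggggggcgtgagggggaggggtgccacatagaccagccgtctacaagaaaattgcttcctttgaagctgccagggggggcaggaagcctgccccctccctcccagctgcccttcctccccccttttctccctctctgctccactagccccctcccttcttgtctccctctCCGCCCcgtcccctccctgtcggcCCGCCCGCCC
Ogn, chr13:49607765-49608014: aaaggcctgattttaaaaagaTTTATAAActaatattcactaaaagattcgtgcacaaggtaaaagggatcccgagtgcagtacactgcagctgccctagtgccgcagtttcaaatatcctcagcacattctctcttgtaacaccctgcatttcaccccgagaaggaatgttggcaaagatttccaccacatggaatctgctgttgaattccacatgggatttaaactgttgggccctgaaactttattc
Aspn, chr13:49544193-49544442: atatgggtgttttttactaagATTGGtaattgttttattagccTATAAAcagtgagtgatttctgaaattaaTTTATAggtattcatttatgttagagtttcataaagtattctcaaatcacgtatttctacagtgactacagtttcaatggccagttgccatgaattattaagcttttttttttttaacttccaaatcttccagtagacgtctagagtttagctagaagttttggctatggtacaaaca
Windows were found for 6 of the 8 members, while Dcn and Lum had none in the RefSeq table. 6 motifs were searched on both strands of 32851 windows of the same length. The TATA box was searched as TATAAA, found in 12.4% of all windows, and the GC box as GGGCGG, found in 32.7%. The CCAAT box carries its own letters and was found in 33.8%. Of the sites of signalling factors, AP-1 was searched as TGANTCA (6.75% of windows), SMAD as CAGAC (42.2%) and GLI, the factor of the Hedgehog pathway, as GACCACCCA (0.225%). The Bgn window was 64.4% G and C and held 3 matches to GGGCGG on the minus strand, 34, 10 and 6 bases before the start. The Ogn window was 42% G and C, with overlapping TATAAA matches 229 and 227 bases before the start. The Aspn window was 30% G and C, with TATAAA matches 207 and 178 bases and a CCAAT match 229 bases before the start. The median over all windows was 52.4% G and C, so the Bgn window lay above it and the neighbours Ogn and Aspn below it. A match is a description of these letters only. RefSeq places the Bgn and Ogn starts at different bases from the GENCODE models above.

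The table held 8985 cells and 3144195 UMIs of the Bbs8 KO mouse and 1929 cells and 715989 UMIs of the Bbs8 WT mouse, with a median of 251 and 278 UMIs per cell. The design text gives a single mouse per genotype, and its cells were spread over 5 barcode sets of 1635 to 2005 cells (Bbs8 KO) and 196 to 768 cells (Bbs8 WT). The codes of the sets match no single labelled sample, and no source used here says what their numbers (KO5 and KO6, WT3 and WT4) stand for, although the study's methods describe more than 1 array per sample and pooling of PCR reactions from each array. The sets were therefore not used as animals, so no p-value or SD is given, counts of genes past a fold are descriptions and not counts of changed genes, and every genotype difference is between these mice only. Intervals are 95% exact Poisson, conditional Poisson (ratios) or Clopper-Pearson (shares) intervals and cover counting error only. Ttc8, the gene that encodes BBS8, had 0 UMIs in the Bbs8 KO mouse, which at a limit of 3 counts allows a level of up to 0.954 CPM (exact Poisson bound 1.17 CPM; CPM are UMIs scaled to a common total per cell class), and 5 UMIs in 3 cells of a single set of the Bbs8 WT mouse, 6.98 CPM (2.27 to 16.3). Of 10847 barcodes, 36 occurred in more than 1 set. Cells were clustered without the 8 members, and classes were named from other markers. Stromal-like cells were 1658 (18.5%) in the Bbs8 KO mouse and 684 (35.5%) in the Bbs8 WT mouse, of which P1-like cells were 560 and 213, P2-like cells 869 and 353 and P3-like cells 229 and 118. The Bbs8 KO set coded KO6_p2 stood apart, with 10.9% stromal-like cells and 47.0% cells in clusters that could not be named.

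The members were carried by stromal-like cells in both mice. Dcn, a regulator of collagen fibrils, was the most counted member with 8878 UMIs in 3356 cells, followed by Lum with 2748, Ogn with 1160, Bgn with 684, Aspn with 324, Prelp with 159 and Podn with 65 UMIs. Fmod had 6 UMIs in 5 cells and could be compared nowhere. In stromal-like cells Dcn reached 5277 CPM in the Bbs8 KO mouse and 8137 CPM in the Bbs8 WT mouse, and 70.2% and 85.5% of these cells had at least 1 Dcn UMI. T and B cell-like cells, which should lack Dcn, held 142 CPM and 698 CPM, and 4.04% and 11.5% of them had a Dcn UMI, at median depths of 260 and 231 UMIs per cell against 320.5 and 338 in stromal-like cells. Dcn was thus 37.2-fold higher in stromal-like than in lymphocyte-like cells of the Bbs8 KO mouse and 11.7-fold higher in the Bbs8 WT mouse. The Bbs8 WT lymphocyte level rested on 43 UMIs and on the clustering. Without integration of the sets, 154 cells formed that class and held 4 Dcn UMIs (95.2 CPM, 25.9 to 244), beside 130 CPM in the Bbs8 KO mouse. With the members kept among the clustering genes, 380 cells formed it and held 140 Dcn UMIs (1400 CPM, 1178 to 1653), beside 290 CPM in the Bbs8 KO mouse, and the log2 excess of stromal-like cells in the Bbs8 WT mouse was 2.54.

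**Figure D1:**
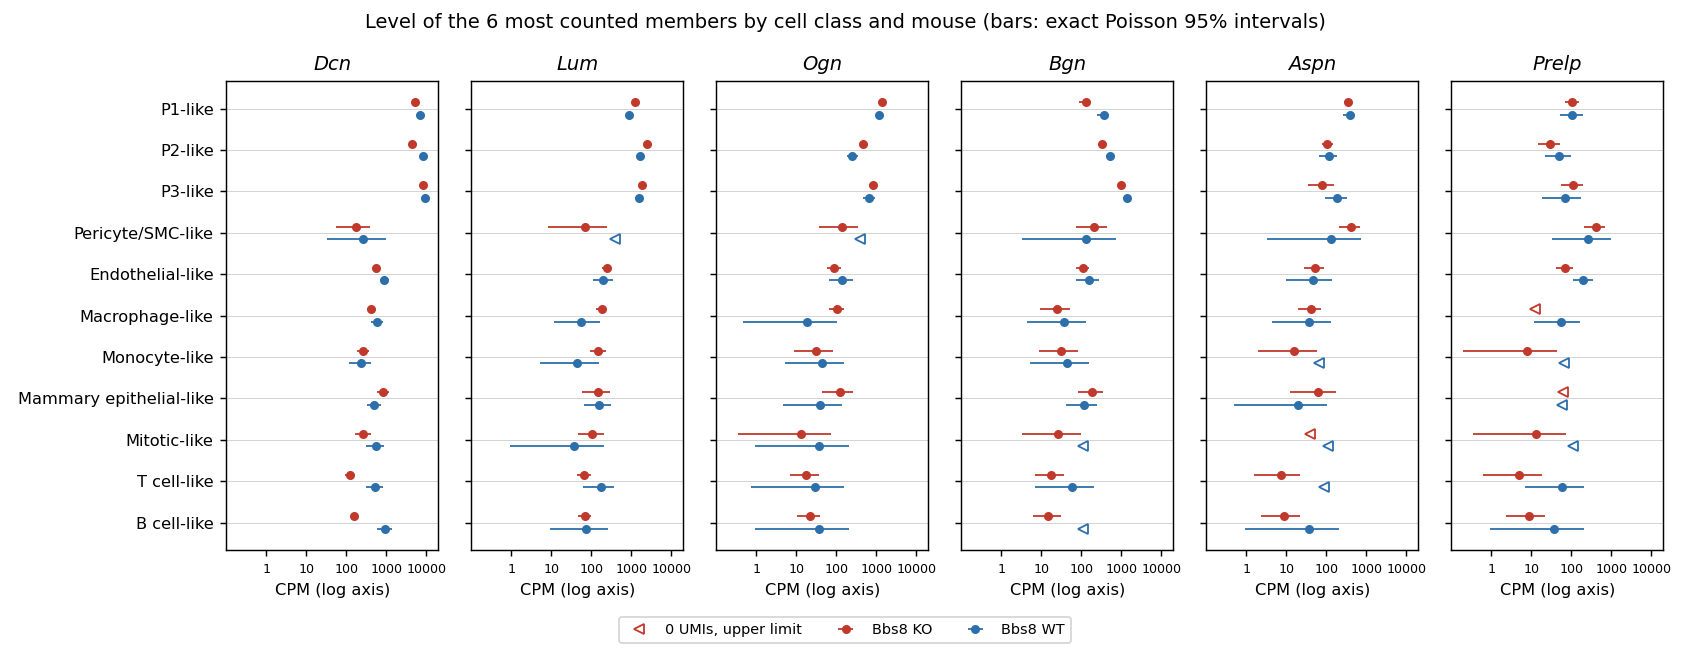
Level of the 6 most counted members (CPM, log axis) in each cell class of the Bbs8 KO (red) and Bbs8 WT mouse (blue), with exact Poisson 95% intervals; open triangles give the upper limit where a class had 0 UMIs. Of the named classes shown, Dcn, Lum and Ogn lay highest in the 3 stromal-like subtypes, Bgn in P2-like and P3-like cells, whereas Prelp and Aspn reached 412 CPM each in Bbs8 KO pericyte-like cells.

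The other members followed the same division with some exceptions. Lum, which binds collagen through its core protein, had 1936 CPM (Bbs8 KO) and 1391 CPM (Bbs8 WT) in stromal-like cells against 68.7 and 130 CPM in lymphocyte-like cells. Ogn had 840 and 621 CPM against 19.8 and 32.5 CPM, and Bgn 352 and 631 CPM against 16.3 and 32.5 CPM. Endothelial-like cells held 550 CPM of Dcn (465 to 646) in the Bbs8 KO mouse and 904 CPM (687 to 1169) in the Bbs8 WT mouse, and macrophage-like cells 412 and 593 CPM. Prelp, a heparin-binding member, and Aspn were also counted in pericyte-like and smooth muscle-like cells, which in the Bbs8 KO mouse had 12 UMIs of each (412 CPM each) and in the Bbs8 WT mouse 2 and 1 UMIs. Bgn in P1-like cells of the Bbs8 KO mouse (128 CPM) did not exceed its level in pericyte-like (206 CPM, 6 UMIs) or mammary epithelial-like cells (185 CPM, 9 UMIs) of that mouse. In endothelial-like cells Prelp had 70.6 CPM (Bbs8 KO) and 203 CPM (Bbs8 WT). Cells in unnamed clusters, 2862 and 365, carried Dcn at 1979 and 4428 CPM, and 33.3% and 57.8% of them had a Dcn UMI. In the Bbs8 WT mouse their Lum (994 CPM) exceeded that of P1-like cells (903 CPM), and their Ogn (331 CPM) that of P2-like cells (254 CPM). These cells are therefore not free of stromal RNA, and they enter none of the stromal values.

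Within the stromal-like cells the members differed in the subtype where they were highest, which was the same in both mice for Dcn, Bgn, Podn, Ogn, Aspn and Lum but not for Prelp. In the Bbs8 WT mouse this rested on few UMIs for Podn and on a small difference for Lum, both given below. Bgn, which signals through Toll-like receptors when soluble, was highest in P3-like cells, with 995 CPM (Bbs8 KO) and 1385 CPM (Bbs8 WT) against 332 and 515 CPM in P2-like and 128 and 361 CPM in P1-like cells. The log2 difference of P1-like from P3-like cells was -2.91 (-3.57 to -2.38) in the Bbs8 KO and -1.92 (-2.56 to -1.34) in the Bbs8 WT mouse, and that of P2-like from P3-like cells -1.57 (-1.97 to -1.19) and -1.42 (-1.89 to -0.96). Both differences had this direction in 10 of 10 barcode sets. Dcn was also highest in P3-like cells in 10 of 10 sets, by less. P1-like cells differed from P3-like cells by -0.68 (Bbs8 KO) and -0.42 (Bbs8 WT) on the log2 scale, and P2-like cells by -0.98 and -0.21. P1-like and P2-like cells had no common order for Dcn. P1-like cells were higher by 0.31 in the Bbs8 KO mouse, in 5 of 5 sets, and lower by -0.21 in the Bbs8 WT mouse, in 3 of 5 sets.

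Ogn and Aspn, the neighbours on chromosome 13, were higher in P1-like than in P2-like cells. Ogn, a member first isolated from bone, had 1408 CPM (Bbs8 KO) and 1201 CPM (Bbs8 WT) in P1-like cells, 458 and 254 CPM in P2-like cells and 838 and 675 CPM in P3-like cells. Its log2 difference of P1-like from P2-like cells was 1.61 (1.36 to 1.89) and 2.22 (1.71 to 2.80), higher in 10 of 10 sets, and that of P1-like from P3-like cells 0.75 and 0.83, higher in 8 of 10 sets. Aspn, an inhibitor of TGF-β and a collagen-binding protein, had 342 and 383 CPM in P1-like, 107 and 114 CPM in P2-like and 78.8 and 190 CPM in P3-like cells. P1-like exceeded P2-like cells by 1.63 and 1.70 on the log2 scale, in 10 of 10 sets. The Aspn difference of P1-like from P3-like cells was 2.05 (Bbs8 KO) and 0.99 (Bbs8 WT), in 8 of 10 sets, and the Bbs8 WT value became -0.077 without the set WT4_p2. Lum had the opposite tendency to its P1-high relatives. It was lower in P1-like than in P2-like cells in 10 of 10 sets, by -0.96 (-1.15 to -0.78) in the Bbs8 KO and -0.84 (-1.22 to -0.48) in the Bbs8 WT mouse. P2-like and P3-like cells differed in Lum by 0.40 (0.18 to 0.64) in the Bbs8 KO and 0.06 (-0.29 to 0.42) in the Bbs8 WT mouse. The Bbs8 WT difference had this direction in 3 of 5 sets, and its sign differed in 3 of 23 alternatives.

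Among all genes, 12.6% were highest in P1-like cells of both mice (Ogn and Aspn of the 7 members with at least 20 UMIs), 18.2% in P2-like cells (Lum) and 12% in P3-like cells (Dcn, Bgn and Podn), while Prelp had no common order. The place of Lum rested on its small Bbs8 WT difference from P3-like cells, whose sign turned in some alternatives. By at least 1.5-fold over the next subtype in both mice, 3.19% of genes were highest in P1-like cells (Ogn and Aspn among the members), 3.84% in P2-like cells (no member) and 2.78% in P3-like cells (Bgn and Podn). The members with few UMIs gave wide intervals. Prelp over both mice was higher in P1-like than in P2-like cells by 1.46 (0.75 to 2.46), in 9 of 10 sets, with 37 and 19 UMIs. Podn, a protein that can slow smooth muscle growth, had 168 CPM (17 UMIs) and 121 CPM (7 UMIs) in P3-like cells, 42.8 and 31.9 CPM in P1-like and 20.9 and 19.1 CPM in P2-like cells. Its Bbs8 WT levels in P1-like and P2-like cells rested on 3 UMIs each, so its order in that mouse is uncertain.

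**Figure D2:**
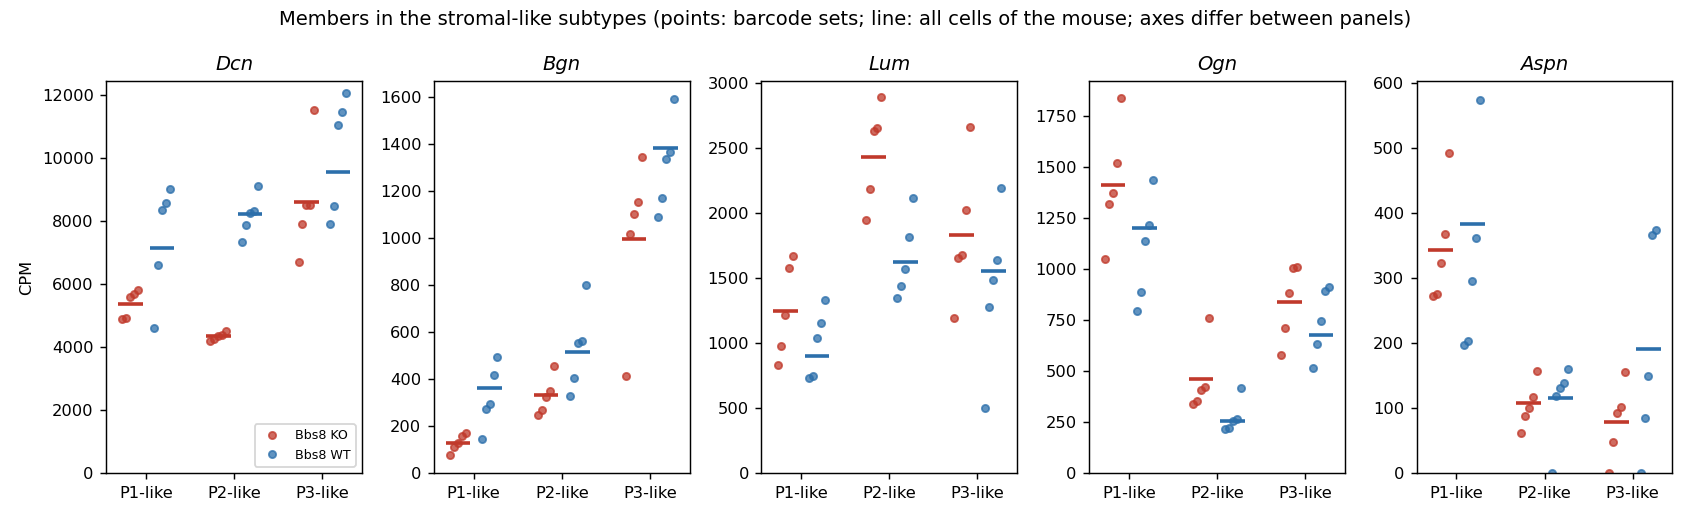
CPM of Dcn, Bgn, Lum, Ogn and Aspn in the 3 stromal-like subtypes, with a point for each of the 5 barcode sets of the Bbs8 KO (red) and Bbs8 WT mouse (blue), a line for all cells of the mouse, and a linear axis from 0 that differs between panels. The Bbs8 KO and Bbs8 WT sets separated for Dcn in P2-like cells, at 4193 to 4495 CPM against 7330 to 9110 CPM, and Bgn stood highest in P3-like cells.

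Between the mice, Dcn and Bgn were lower and Lum and Ogn higher in stromal-like cells of the Bbs8 KO mouse. In the 5 Bbs8 KO sets (in the order KO5_p2, KO5_p3, KO6_p1, KO6_p2, KO6_p3) Dcn had 4920, 5037, 5631, 5610 and 5255 CPM, and in the 5 Bbs8 WT sets (WT3_p1, WT3_p2, WT3_p3, WT4_p2, WT4_p3) 8949, 7154, 8565, 7472 and 9260 CPM. The ranges did not overlap. The log2 ratio of Bbs8 KO over Bbs8 WT, with 5 CPM added to both levels here and in all ratios, was -0.62 (-0.70 to -0.55), a level 1.54-fold higher in the Bbs8 WT mouse. It was -0.56 without the set WT4_p3, -0.54 in cells with at least 200 genes, -0.52 without integration and -0.53 after the lymphocyte-like level of each mouse was subtracted, all short of 1.5-fold. Pooled stromal-like values also carry the mix of subtypes. P3-like cells, highest for Dcn and Bgn, held 101460 of 740599 stromal-like UMIs in the Bbs8 KO mouse and 57776 of 309084 in the Bbs8 WT mouse. The part of this mix in the pooled ratios was not tested.

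Bgn in stromal-like cells had 234, 361, 442, 393 and 343 CPM in the Bbs8 KO sets and 543, 730, 472, 643 and 658 CPM in the Bbs8 WT sets, again without overlap, and the log2 ratio was -0.83 (-1.11 to -0.56). Ogn had 714, 749, 811, 1009 and 964 CPM in the Bbs8 KO sets and 614, 644, 544, 685 and 532 CPM in the Bbs8 WT sets, and the log2 ratio was 0.43 (0.20 to 0.68). For Ogn every Bbs8 KO set lay above every Bbs8 WT set, although the fold stayed under 1.5, and with each cell thinned to 200 UMIs the Ogn ratio was 0.19 (-0.18 to 0.58), an interval that spans 0. The log2 ratio of Lum was 0.48 (0.32 to 0.64), with sets of 1515 to 2309 CPM (Bbs8 KO) and 1010 to 1700 CPM (Bbs8 WT), which overlapped. The ratios of Aspn (-0.18, -0.62 to 0.26), Prelp (-0.10, -0.86 to 0.69) and Podn (0.19, -0.74 to 1.25) had intervals on both sides of 0, so at this depth no difference was detectable. The Podn ratio was 1.17 without the Bbs8 WT set WT3_p1, which held 8 of the 13 Podn UMIs of that mouse, and ran from -0.16 to 1.17 with 1 set left out. The Prelp ratio was 1.22 after the lymphocyte-like level was subtracted, but the level subtracted in the Bbs8 WT mouse, 48.7 of 71.2 CPM, rested on 3 UMIs. Without KO6_p2, the set that stood apart, the stromal-like ratios were -0.64 for Dcn, -0.86 for Bgn, 0.43 for Lum and 0.38 for Ogn, and the P2-like ratio of Dcn was -0.92.

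The counts of members were set beside those of all genes. Of the 7 members with at least 20 UMIs, 2 (Dcn and Bgn) were at least 1.5-fold lower in the Bbs8 KO mouse, beside 9.43% of the 6896 genes with as many UMIs, and 0 were at least 1.5-fold higher, beside 25.2%. The sets of the mice separated for 3 of the 7, beside 5.96% of all genes, Dcn and Bgn below (1.46% of all genes) and Ogn above (4.5%). Only 621 of the 6896 genes had at least 200 UMIs, as Dcn, Bgn and Ogn did. Such shares were not taken over genes of like depth, here or by subtype, so they show no excess of the family. The median log2 ratio was -0.10 over the 7 members and 0.14 over all 6896 genes. With at least 200 UMIs required, it was -0.18 over 5 members and -0.04 over 621 genes in stromal-like cells, 0.23 over 3 members and -0.05 over 164 genes in P1-like cells, and -0.02 over 4 members and -0.10 over 248 genes in P2-like cells. The sum of all members was 8708 CPM in the Bbs8 KO and 11114 CPM in the Bbs8 WT mouse, a log2 ratio of -0.35 (-0.41 to -0.29), with sets of 7660 to 9681 CPM and 9753 to 12453 CPM.

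Among the 3 stromal-like subtypes, the genotype difference of Dcn was largest in P2-like cells. There the Bbs8 KO sets had 4495, 4244, 4361, 4193 and 4330 CPM and the Bbs8 WT sets 8232, 8307, 7330, 7874 and 9110 CPM. The ranges lay well apart, and the log2 ratio was -0.92 (-1.03 to -0.82), a level 1.90-fold higher in the Bbs8 WT mouse. The sets pooled by number code had 4376 CPM (KO5) and 4312 CPM (KO6) against 8034 CPM (WT3) and 8353 CPM (WT4). In P1-like cells the Dcn ratio was -0.41 (-0.54 to -0.27), and the sets overlapped. In P3-like cells it was -0.15 (-0.31 to 0.00), where the overlap was wide. The intervals of the P2-like and P3-like ratios did not meet, but with 1 mouse each the difference between subtypes was not tested.

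For Lum in P2-like cells the Bbs8 KO sets had 1943, 2187, 2656, 2896 and 2633 CPM and the Bbs8 WT sets 2115, 1349, 1571, 1439 and 1817 CPM. Only the Bbs8 WT set WT3_p1 reached into the Bbs8 KO range, and the log2 ratio was 0.58 (0.38 to 0.79), just short of 1.5-fold. It passed 1.5-fold in cells with at least 200 genes (0.66), without integration (0.69), after subtraction of the lymphocyte-like level (0.66) and without the set KO5_p2 (0.66), KO5_p3 (0.62), WT3_p1 (0.65) or WT4_p3 (0.64). The Lum ratio was 0.46 (0.11 to 0.82) in P1-like and 0.23 (-0.14 to 0.61) in P3-like cells. Over the alternatives the P1-like value ran from 0.16 to 1.03, and the highest passed 1.5-fold. By number code, Lum in P1-like cells was 906 CPM in KO5, between the 836 CPM of WT4 and the 1016 CPM of WT3, and 1483 CPM in KO6, so the higher level was found in KO6 alone. Lum in all stromal-like cells was 1578 CPM in KO5 and 2193 CPM in KO6 against 1365 CPM in WT3 and 1407 CPM in WT4. Ogn in P2-like cells had 421, 338, 354, 405 and 761 CPM in the Bbs8 KO sets and 414, 253, 262, 220 and 214 CPM in the Bbs8 WT sets, and its ratio was 0.84 (0.35 to 1.38). It was 0.56 without the set KO6_p3, which held the highest value, and 0.37 without integration, both under 1.5-fold, and after thinning its interval spanned 0 (0.79, -0.07 to 1.77). The Ogn ratio was 0.23 (-0.08 to 0.55) in P1-like and 0.31 (-0.25 to 0.90) in P3-like cells, and both intervals spanned 0. Over the alternatives the P1-like value ran from -0.13 to 0.43. For Bgn the ratio in P1-like cells was -1.46 (-2.23 to -0.76), on 33 and 34 UMIs, beside -0.62 (-1.05 to -0.21) in P2-like and -0.47 (-0.91 to -0.03) in P3-like cells. In each of the 3 subtypes the Bgn sets overlapped. The P2-like value ranged from -0.80 to -0.26 over the alternatives, and was under 1.5-fold in several of them.

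**Figure D3:**
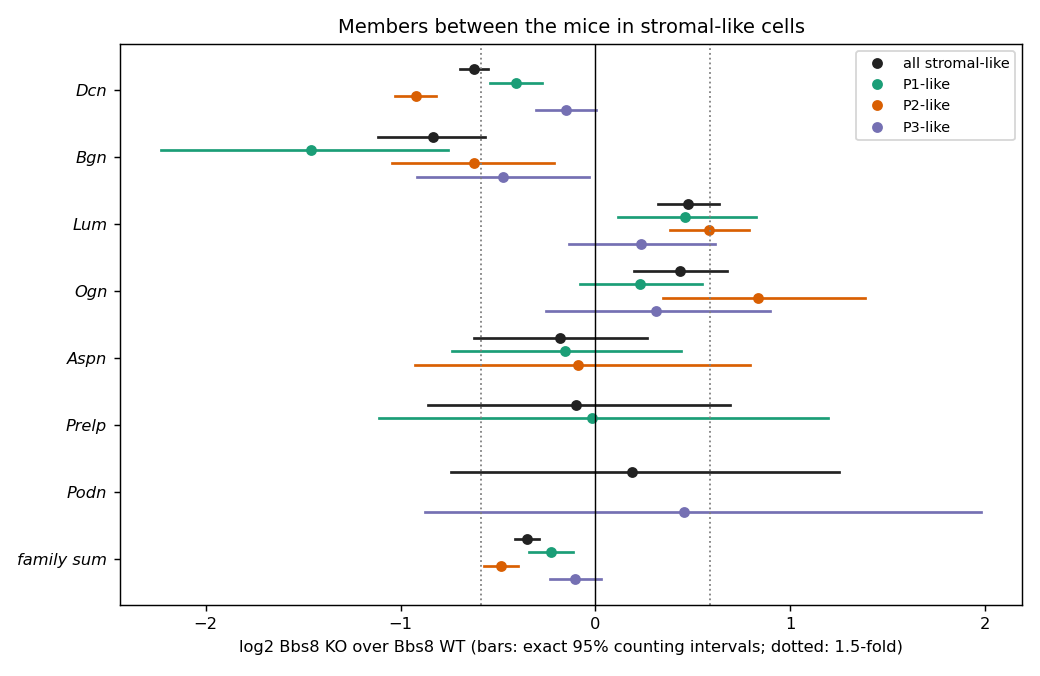
Log2 ratio of the Bbs8 KO over the Bbs8 WT mouse for each member with at least 20 UMIs and for the sum of all members, in all stromal-like cells (black) and in P1-like (green), P2-like (orange) and P3-like cells (violet); bars are exact 95% counting intervals, and dotted lines mark 1.5-fold. Dcn in P2-like cells lay at -0.92 and Bgn in P1-like cells at -1.46. The points of Lum and Ogn lay above 0 in each group of cells. Their intervals spanned 0 in P3-like cells, and that of Ogn also in P1-like cells.

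By subtype, 1 of 6 members (Bgn) was at least 1.5-fold lower in P1-like cells, beside 17.3% of genes, and 0 higher, beside 21.2%. In P2-like cells 2 of 5 (Dcn and Bgn) were lower, beside 14.2%, 1 (Ogn, with Lum just under the limit) was higher, beside 24.7%, and the sets separated for Dcn alone, beside 4.98%. In P3-like cells 0 of 5 passed 1.5-fold, beside 38.7% of genes either way. The sets separated for no member in P1-like cells, beside 3.66%, or in P3-like cells, beside 2.71%. P3-like cells were also the fewest, so that 1145 genes had 20 UMIs there.

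RNA of other cells moved with genotype in the stromal-like classes, and its part in these ratios was not tested. In stromal-like cells the whole T cell list had 547 CPM in the Bbs8 KO mouse (8 of 8 genes with a UMI) and 146 CPM in the Bbs8 WT mouse (7 of 8), and the whole B cell list 713 CPM (7 of 7) and 194 CPM (6 of 7). The macrophage list had 531 and 191 CPM, the endothelial list 271 and 67.9 CPM, the mitotic list 200 and 25.9 CPM and the pericyte and smooth muscle list 155 and 64.7 CPM, while the monocyte list had 905 and 958 CPM. The list of 6 stromal genes used to name the clusters, Pdgfra, Col1a1, Col1a2, Col3a1, Gsn and Serpinf1, had 64270 CPM and 75769 CPM in the same cells. Of the subtype lists, the P1 list had 2659 CPM in the Bbs8 KO and 2274 CPM in the Bbs8 WT mouse, the P2 list 6578 and 9806 CPM and the P3 list 1211 and 1880 CPM. Within P2-like cells, where Dcn differed most among the subtypes, the P2 list had 9715 and 14266 CPM, the P3 list 798 and 1329 CPM, the T cell list 537 and 172 CPM and the macrophage list 626 and 178 CPM. Levels of genes that define the class thus also differed between the mice in these cells. Scaling factors from edgeR (TMM) and DESeq2 lowered all ratios in stromal-like cells by about the same step. Dcn then had -0.80 and -0.82, Bgn -1.01 and -1.03, Lum 0.30 and 0.28, and Ogn 0.26 and 0.23, so the 4 directions were the same.

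A ratio of members within the same cells does not depend on the total. The number of Dcn UMIs per Lum UMI was chosen for comparison after Dcn was seen to be lower and Lum higher in the Bbs8 KO mouse. Gaps between the sets therefore follow in part from that choice, and no share over other gene pairs was taken. The number compares the mice, and says nothing on which gene was more abundant, as gene lengths and 3′ ends differ. In stromal-like cells it was 2.73 (2.56 to 2.90) in the Bbs8 KO and 5.85 (5.28 to 6.49) in the Bbs8 WT mouse. The Bbs8 KO sets had 2.44 to 3.25 and the Bbs8 WT sets 5.26 to 7.09, with no overlap. In P2-like cells it was 1.79 (1.65 to 1.94) and 5.07 (4.43 to 5.83), with sets of 1.45 to 2.31 and 3.89 to 6.16, and in P1-like cells 4.31 and 7.88, with sets of 3.49 to 5.95 and 6.18 to 9.04. The sets lay apart in both subtypes. P3-like cells had 4.68 (3.99 to 5.52) and 6.12 (4.89 to 7.74), and there the sets overlapped.

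The same direction was counted in several other groups of cells. Lymphocyte-like cells should lack Dcn and unnamed cells are not free of stromal RNA, so their ratios are no separate observation of other cell types. Dcn per Lum was 2.52 in the Bbs8 KO and 4.46 in the Bbs8 WT mouse in unnamed cells, 2.28 and 4.46 in endothelial-like cells, and 2.07 and 5.38 in lymphocyte-like cells. The intervals lay apart in unnamed cells and overlapped in endothelial-like cells (13 Lum UMIs in the Bbs8 WT mouse) and lymphocyte-like cells (8 Lum UMIs), and a single Bbs8 KO set reached 7.5 in endothelial-like cells. Mammary epithelial-like cells had the opposite order, 5.86 and 3.25, on 7 and 8 Lum UMIs, also with overlapping intervals. The log2 ratio of Dcn per Lum between the mice was -1.10 in stromal-like and -1.51 in P2-like cells, and it stayed between -1.16 and -1.05 and between -1.60 and -1.42 in every alternative run for it. An alternative that only changed the total could not alter it.

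**Figure D4:**
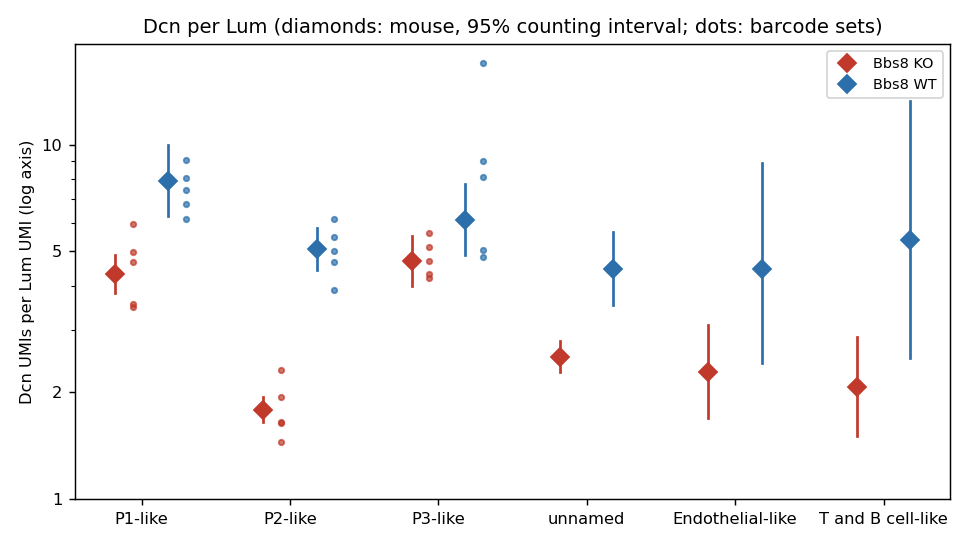
Dcn UMIs per Lum UMI (log axis) in classes of the Bbs8 KO (red) and Bbs8 WT mouse (blue), with diamonds and bars for the mouse and its 95% counting interval and dots for the barcode sets of the stromal-like subtypes. The Bbs8 KO sets lay below the Bbs8 WT sets in P1-like and P2-like cells, at 1.45 to 2.31 against 3.89 to 6.16 in the latter.

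Among the 3 stromal-like subtypes, the make-up of the family's UMIs differed most in P2-like cells. Dcn made up 56.2% (54.4 to 58.0) of the members' UMIs in P2-like cells of the Bbs8 KO mouse, against 76.2% (74.1 to 78.2) of those of the Bbs8 WT mouse. The share of Lum was 31.5% (29.8 to 33.2) and 15.0% (13.3 to 16.8). In P1-like cells the Dcn share was 62.1% and 70.4% and the Ogn share 16.3% and 11.9%. In P3-like cells the Dcn shares lay close together, at 68.0% and 70.3%, beside Bgn shares of 7.9% and 10.2%.

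**Figure D5:**
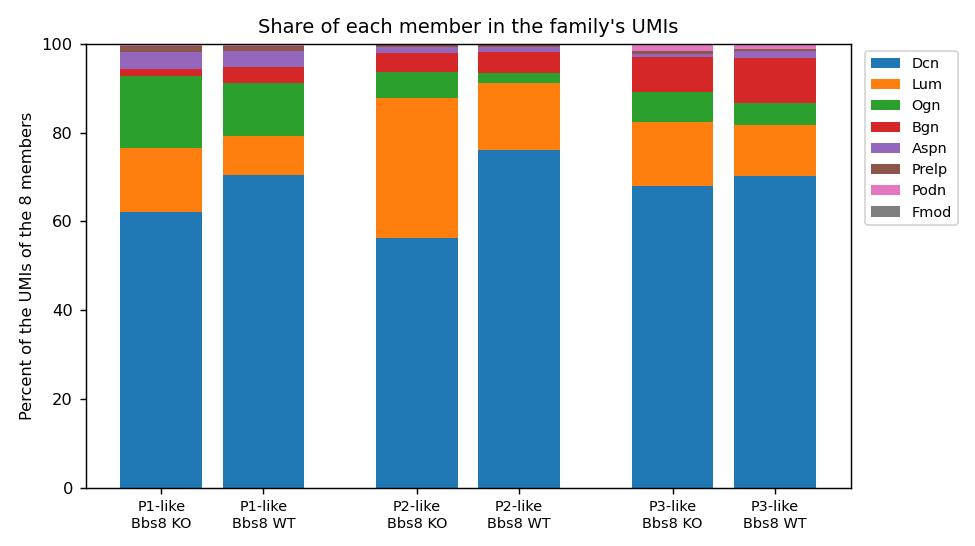
Percent of the UMIs of all 8 members that each member took, in the 3 stromal-like subtypes of either mouse. The Lum share (orange) in P2-like cells was 31.5% for the Bbs8 KO mouse against 15.0%, and the Bgn share (red) was largest in P3-like cells.

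Shares of cells with a UMI were compared after each cell was thinned to 200 UMIs, which left 1326 Bbs8 KO and 613 Bbs8 WT stromal-like cells and removed 332 and 71 shallower cells. A Dcn UMI was then found in 56.9% (54.2 to 59.6) of Bbs8 KO and 73.2% (69.6 to 76.7) of Bbs8 WT stromal-like cells, and in P2-like cells in 54.1% and 75.5%, beside 65.2% and 87.0% before thinning. Lymphocyte-like cells had 2.7% and 8.5%. Lum was found in 28.7% (26.2 to 31.2) and 23.7% (20.3 to 27.2) of thinned stromal-like cells, Ogn in 13.6% and 10.8%, and Bgn in 6.8% (5.5 to 8.3) and 11.6% (9.2 to 14.4). At least 1 member was found in 74.6% and 84.8%, at least 2 members in 31.5% and 33.3%, and at least 3 in 5.4% and 6.0%. The mice thus differed in the share with any member and little in the share with several. Among Bbs8 KO stromal-like cells, Lum was found in 32.1% (28.7 to 35.5) of cells with a Dcn UMI and 24.2% (20.7 to 27.9) of cells without. Among Bbs8 WT cells these shares were 23.4% and 24.4%, and their intervals overlapped.

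The members' levels were compared with those of other genes over 18 sums of a cell class in a mouse. These sums share libraries, and the division between stromal-like and other classes enters all of them, so the coefficients only describe likeness. The genes with the highest Pearson r among 3654 candidates were Col1a2 (0.98), Gsn (0.98) and Col3a1 (0.97) for Dcn, and Col6a3 (0.99), Fkbp7 (0.97) and Col5a2 (0.97) for Lum. Col1a2, Col3a1 and Gsn are also among the genes that named the clusters. For Bgn they were Cygb, Pcdh7 and Spon1 (0.92 to 0.93), for Ogn Fbn1, Olfml2b and Igfbp6 (0.96 each), and for Aspn Fbn1 (0.94), Fstl1 (0.93) and Igfbp6 (0.93). Ogn and Aspn shared Fbn1, which encodes fibrillin, and Igfbp6, which binds insulin-like growth factors. Between Dcn, Lum, Bgn, Ogn and Aspn, the members with at least 200 UMIs, r was lowest for Bgn and Aspn (0.67) and highest for Dcn and Lum (0.92).

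The genes around the family were read from lists, in stromal-like cells and with the same 1.5-fold and 20 UMI limits (25.2% of all genes higher and 9.43% lower in the Bbs8 KO mouse, median 0.14, or -0.04 over genes with at least 200 UMIs). Of 12 other genes of the wider leucine-rich repeat matrix family, 8 were in the table and 3 reached 20 UMIs. These were Lrrc17 (log2 ratio -0.77, -1.08 to -0.48), Igsf10 (-0.08) and Ecm2 (-0.82, -1.39 to -0.30), the last a neighbour of Aspn, so 2 of 3 were lower. Of 15 enzymes of chondroitin and dermatan sulfate synthesis, 3 were higher and 3 lower, with a median of -0.10. Chsy1, which extends the chain, had 0.77, Dsel, an epimerase-like gene, -0.67, Chpf -0.46 and the xylose kinase Fam20b -0.13. Of 4 keratan sulfate enzymes 1 was higher and 0 lower (median 0.18). Their ratios were -0.14 for B4galt1, 0.41 for St3gal1, -0.06 for Chst2 and 0.72 for Fut8, which adds core fucose, and each interval spanned 0.

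Of 10 fibrillar and associated collagens that the family binds, 0 passed 1.5-fold, with a median of -0.12. Col3a1 had -0.21, Col1a2 -0.25, Col1a1 0.00 and Col5a2 -0.14, and Col6a3, the gene most like Lum, had 0.41 (0.25 to 0.57). The Dcn and Bgn ratios lay below, and the Lum and Ogn ratios above, the range of these collagen ratios (-0.25 to 0.41), but the intervals of Lum and Ogn overlapped that of Col6a3. The wide interval of Col12a1 (-1.32 to 0.87, on 24 and 12 UMIs) held those of Dcn, Bgn, Lum and Ogn. Of 13 ligands and receptors, 2 were higher and 3 lower (median -0.28). The endocytic receptor Lrp1 had -0.39, the integrin subunit Itgb1 -0.31, Egfr, a receptor that decorin binds, -0.67 and Tgfbr2 0.36. Of 9 proteases and their enhancers 1 was higher and 1 lower (median -0.07). The gelatinase Mmp2 had -0.58 in stromal-like and -1.10 in P2-like cells, the subtype in which Dcn also differed most, and Pcolce, an enhancer of procollagen processing, had 0.41. The membrane-bound Mmp14 had -0.07 and the stromelysin Mmp3, which also served as a P3 marker, -0.52.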

How the data were processed

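Single-cell RNA of iWAT stromal vascular fraction from 1 Bbs8 KO and 1 Bbs8 WT mouse was measured with Seq-Well S3. The deposited table holds raw UMI counts per gene and cell, which the authors made with bcl2fastq (2.20), Drop-seq tools and STAR on mm10, per the labels and methods. The cells had 101 to 994 genes and at most 20.0% mitochondrial UMIs. The study's methods name a step that evens out depth, but whether these counts precede it is not stated. Each genotype had 5 barcode sets, whose codes match no single labelled sample (0 columns unmapped to a genotype).

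Sets were integrated with Seurat 5.3.0 under R 4.3.3, on 2000 variable features from which the members were left out, 30 dimensions, anchor filter 100, anchor weight 50 and resolution 0.8, and clusters of at least 60 cells were named from marker lists that held no member. Of 17 clusters, 16 were large enough, 12 were named and 4 were not. Lists with fewer than 3 genes in the table named none (2 lists, decided after the data were seen). No doublet caller was run, and doublets were kept. UMIs were summed per class and scaled to CPM (Python 3.11.15, SciPy 1.17.1). Ratios used a pseudocount of 5 CPM and needed 20 UMIs over both mice. With 1 mouse per genotype nothing was tested, and calculations were checked on simulated counts. Every member present was to be named, with the 3 most alike genes of at least 200 UMIs (log2 of CPM plus 20) and the 4 most counted genes of each companion list. Members and lists were chosen with earlier results of these data known. Alternatives covered TMM factors (edgeR 4.0.16), DESeq2 1.42.0 size factors, pseudocount, low-value filters, thinning, clustering and leaving out each set. Gene positions came from GENCODE M21 and sequences from RefSeq.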

Additional observations from a re-analysis of the deposited data

Results flagged for a closer look

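Levels of the members in the 5 barcode sets of each mouse were examined for a set far from the others, in 54 groups of 5 sets, and 4 groups held such a set. The limit used would flag about 1 in 20 groups by chance if the values were independent and normal. Sets of 1 mouse with few UMIs need not follow that rate. The groups also overlap, because stromal-like cells contain the subtypes and the members' sum was among the levels. Ogn in P2-like cells of the Bbs8 KO mouse was 761 CPM (61 UMIs) in the set KO6_p3, beside 338 to 421 CPM in the other sets. Ogn in P2-like cells of the Bbs8 WT mouse was 414 CPM (9 UMIs) in the set WT3_p1, beside 214 to 262 CPM. Aspn in P2-like cells of the Bbs8 WT mouse was 0 CPM in the set WT3_p2, beside 119 to 160 CPM in the others. Podn in stromal-like cells of the Bbs8 WT mouse was 189 CPM (8 UMIs) in the set WT3_p1, beside 0 to 41.2 CPM. The causes were not tested.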

How the results depend on the processing

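No paired analysis was possible because each genotype was 1 mouse and the set codes match no numbered sample of the labels. The log2 ratio of the members' sum in stromal-like cells (-0.35) was -0.53 with TMM factors, -0.55 with DESeq2 size factors, -0.24 in cells with at least 200 genes, -0.44 after thinning, -0.26 without integration and -0.27 after subtraction of the lymphocyte-like level, and -0.41 to -0.30 with 1 set left out. The log2 excess of Dcn in stromal-like over lymphocyte-like cells (5.05 over both mice) was 5.36 with TMM factors, 5.38 with DESeq2 size factors, 5.38 in cells with at least 200 genes, 3.94 with the members kept in the clustering and 5.59 without integration, and 4.96 to 5.15 with 1 set left out. The count of members at least 1.5-fold lower (2) was 1 in cells with at least 200 genes, without integration, after subtraction and without the set WT4_p3, so that it ran from 1 to 2. The count at least 1.5-fold higher (0) was 2 in cells with at least 200 genes, 1 after subtraction (Prelp, whose subtracted Bbs8 WT level rested on 3 UMIs) and 1 without the set WT3_p1. The median member ratio (-0.10) ran from -0.28 to 0.22, and from -0.18 to 0.03 with 1 set left out. The Aspn difference of P1-like from P3-like cells in the Bbs8 WT mouse (0.99) ran from -0.077 to 1.64 with 1 set left out, and was -0.077 without the set WT4_p2, which held 22 of the 36 P1-like Aspn UMIs. The cause of the other moves was not tested. Of 584 further values of single members, 563 stayed within their counting interval, 21 moved beyond it, and 27 differed in sign, each where the main interval spanned 0. Subtraction of the lymphocyte-like level, the Dcn per Lum ratio and the alternatives for counts and subtype differences were chosen after seeing the data. Depth limits Prelp, Podn and Fmod most.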
